A study of Homo sapiens with 6 samples.

Results

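The genes compared here are 41 genes of DNA replication and mitosis, out of 60499 gene IDs in the deposited tables. They were chosen by name: 18 act in S phase and 23 in G2 phase and mitosis, and the rule that lists them uses no measured value, although earlier results of these data were known when they were chosen. All 41 symbols matched a single gene ID, and all 41 were expressed well enough to be tested. The samples were 6 wells of H1 cells, a long established line of human embryonic stem cells, kept for 4 days in Nutristem medium with daily changes. In 3 wells the plastic carried laminin-521 alone (LN-521), and in 3 wells laminin-521 together with laminin-221 (LN-521+LN-221), so laminin-521 was present under every culture. Laminins are proteins of the basement membrane to which these cells attach. The wells are replicates of 1 cell line, so the p-values below measure the spread between wells of that line and no wider spread. Total RNA was sequenced from each well as a separate library.

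A dividing cell copies its DNA once in S phase and separates the copies in mitosis. Before S phase the licensing proteins CDC6 and CDT1 load the ring of MCM2 to MCM7 onto origins, and CDC45 and the GINS complex then turn this ring into the active replicative helicase. Entry into mitosis is driven by CDK1 bound to cyclin A or cyclin B, and exit from it by the anaphase-promoting complex (APC/C), a ubiquitin ligase activated by CDC20. Human embryonic stem cells divide quickly, with a short G1 phase, and the messages of both groups are commonly read as a proxy for the fraction of cells that are cycling.

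The 2 groups are also known for different promoters. Replication genes are classical targets of E2F factors, whereas many mitotic genes carry a cell cycle homology region (CHR), bound by the DREAM and MuvB complexes, near CCAAT boxes bound by NF-Y. Windows from 250 bases before to 50 bases after the transcription start were available from RefSeq (GRCh38.p14) for 16 of the 18 replication and 18 of the 23 mitosis genes, with the first listed window of each gene used. AURKA, BIRC5, MCM4, MCM5, TPX2, TTK and UBE2C had no entry. Both strands were searched for the E2F-type words TTCGCGC or TTGGCGC or TTCCCGC or TTGCCGC, for the CHR-type words TTTGAA or TTCGAA, and for CCAAT. Overlapping matches were counted separately, since an E2F-type word on 1 strand can share bases with another on the other strand. An E2F-type word stood in 13 of 16 replication genes (81.2%), 4 of 18 mitosis genes (22.2%) and 13.1% of all 27305 genes in the table. A CHR-type word stood in 2 of 16 replication genes (12.5%), 12 of 18 mitosis genes (66.7%) and 16.6% of all genes. CCAAT was found in 68.8%, 83.3% and 35.7%, and a CHR-type word together with CCAAT in 12.5%, 61.1% and 6.58%. The windows also differed in base composition, with a median GC content of 67.8% for replication genes, 61.3% for mitosis genes and 58.3% for all genes. These matches describe the letters in the windows and were not tested for binding.

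**Figure D1:**
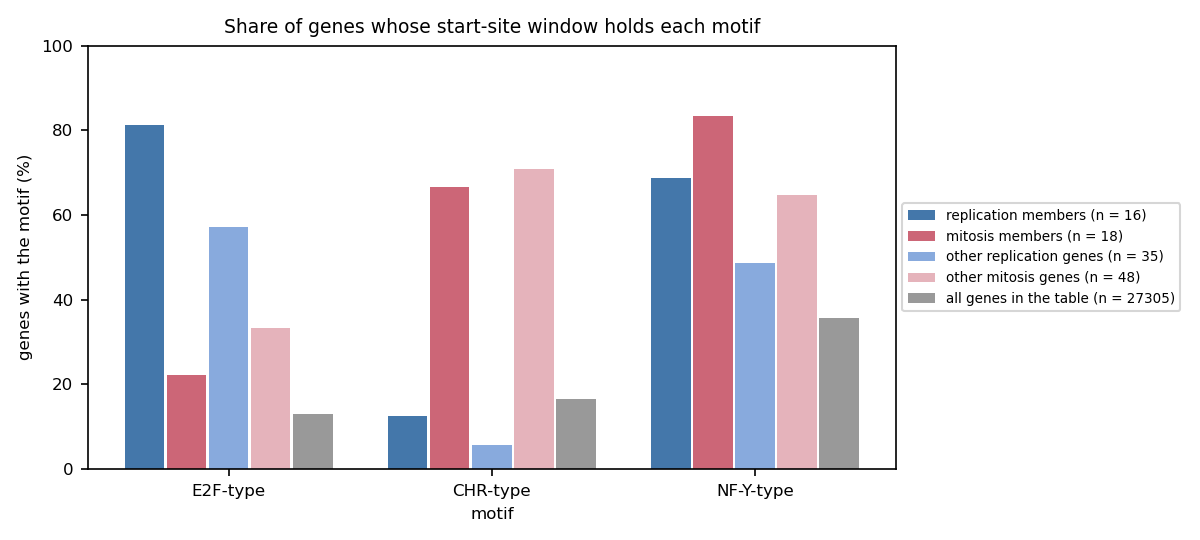
Share of genes (%) whose window from 250 bases before to 50 bases after the start holds an E2F-type, a CHR-type or a CCAAT word (labelled NF-Y-type), for the compared genes, 2 lists of other cell cycle genes and all genes in the RefSeq table. The E2F-type bar is highest for replication genes, at 81.2%, and the CHR-type bars are high for both mitosis lists, at 66.7% and 70.8%.

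Windows of 4 genes are shown because they hold these words and because the genes lie at different places in the comparison below. MCM6 and CDC20 had the smallest p-values of their groups, POLA1 had the highest estimate of the replication genes, and CCNB2 had an estimate close to 0. Each run gives the 250 bases before the start, 5′ to 3′ on the gene's strand, with E2F-type, CHR-type and CCAAT matches in capitals; a match on the opposite strand appears as its reverse complement, so that CCAAT reads ATTGG.
MCM6 (chr2:135876444-135876693, minus strand): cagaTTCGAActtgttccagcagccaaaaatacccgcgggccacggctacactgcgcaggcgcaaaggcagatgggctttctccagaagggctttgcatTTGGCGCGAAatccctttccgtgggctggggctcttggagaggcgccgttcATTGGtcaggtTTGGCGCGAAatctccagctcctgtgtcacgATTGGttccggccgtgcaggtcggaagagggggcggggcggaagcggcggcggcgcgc
POLA1 (chrX:24693668-24693917, plus strand): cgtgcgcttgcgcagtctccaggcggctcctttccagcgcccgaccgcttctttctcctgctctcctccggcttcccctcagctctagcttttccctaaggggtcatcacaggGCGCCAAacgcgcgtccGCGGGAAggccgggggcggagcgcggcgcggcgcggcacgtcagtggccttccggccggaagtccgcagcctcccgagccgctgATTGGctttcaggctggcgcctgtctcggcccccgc
CDC20 (chr1:43358731-43358980, plus strand): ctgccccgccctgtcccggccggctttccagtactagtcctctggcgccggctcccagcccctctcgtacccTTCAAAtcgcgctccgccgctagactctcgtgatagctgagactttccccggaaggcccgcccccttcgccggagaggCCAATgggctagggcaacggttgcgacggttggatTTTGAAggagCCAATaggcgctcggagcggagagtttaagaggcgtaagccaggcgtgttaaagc
CCNB2 (chr15:59104896-59105145, plus strand): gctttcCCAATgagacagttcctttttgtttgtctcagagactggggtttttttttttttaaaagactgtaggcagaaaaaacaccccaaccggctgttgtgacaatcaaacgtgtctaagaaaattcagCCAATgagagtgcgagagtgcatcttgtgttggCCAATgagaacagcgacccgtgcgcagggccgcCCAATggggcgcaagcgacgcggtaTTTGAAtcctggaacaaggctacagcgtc
In MCM6 4 E2F-type matches form 2 overlapping pairs, which start 151, 148, 89 and 86 bases before the transcription start. POLA1 has 2 in the bases shown, at 137 and 120 bases, and 1 more in the searched window after the start. CDC20 has CHR-type words 178 and 65 bases before the start, the nearer one between CCAAT words at 100 and 55 bases. In CCNB2 a CHR-type word lies 29 bases before the start, nearer to the start than the CCAAT words at 244, 120, 87 and 54 bases.

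Total counts per library ranged from 20606450 to 26836686, and the cycle genes were deeply covered, with 344 to 19174 counts per gene and library. Principal component 2 of all tested genes set LN-521 replicate 1 apart, at 33.93 against -15.45 to 3.7 in the other 5 libraries. The 8 pluripotency markers checked were all tested and summed to between 9260 and 9510 CPM (counts scaled to the depth of the library) in every library, and 1 of the 8 was called higher and 3 lower on LN-521+LN-221, where 2.53% of all genes tested were called in either direction. Markers of other cell types were low by comparison. The neural ectoderm list summed to 412 to 460 CPM on LN-521 and 472 to 529 CPM on LN-521+LN-221, of which NES gave 90.2%. The mesoderm list summed to 185 to 216 and 140 to 161 CPM, of which KDR gave 97.3%, with MSGN1 at 0 counts in all libraries. The endoderm list gave 5.14 to 9.76 and 10.6 to 12.7 CPM, the trophoblast or amnion list 22.5 to 27.3 and 22.6 to 26.1 CPM, and the fibroblast list 432 to 493 and 428 to 433 CPM, with LUM at 0 counts. Of the 8 markers in each of these lists 5, 2, 2, 2 and 5 could be tested, and 1, 1, 1, 0 and 1 passed. Single markers differed by more than any of the 41 genes below, whose log2 fold changes ran from -0.19 to 0.12. The log2 fold changes of the tested markers ran from -0.73 to 0.24 in the pluripotency list, -0.18 to 1.75 in the neural ectoderm list, -0.37 to -0.17 in the mesoderm list, -0.27 to 0.96 in the endoderm list, -0.12 to 0.26 in the trophoblast or amnion list and -0.85 to 0.12 in the fibroblast list. The part of these differences in the cell cycle values was not tested. In bulk RNA, fewer cells in a phase and less message per cell cannot be told apart.

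The question asked of these genes was whether adding laminin-221 changed the messages of proliferation. None of the 41 genes passed the test. With edgeR's quasi-likelihood test and p-values adjusted over 17608 genes (Benjamini-Hochberg, threshold 0.05), 0 of 41 were higher and 0 lower on LN-521+LN-221. Of all genes tested 2.53% passed, 1.40% higher and 1.14% lower. DESeq2 also called 0 of the 41, against 3.86% of its 13200 genes. With the replicate number as a block 0 of the 41 passed, against 3.67% of all genes. Before adjustment 5 of 41 genes (12.2%) had p-values under 0.05, all 5 lower on LN-521+LN-221, against 14.5% of all genes in either direction and 7.49% in the lower one. The smallest adjusted p-value of the 41 was 0.130.

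The data limit how large a difference could have been missed. The standard errors (SE) of the log2 fold changes had a median of 0.061 for the 41 genes and 0.101 for all genes. At the precision of each gene, a log2 fold change of 0.19 to 0.41 (median 0.24) would have been called. The 95% confidence intervals of all 41 lay between -0.33 and 0.25 on the log2 scale, that is between -20.2% and 19.2%, and 36 of the 41 intervals held 0. The intervals of MCM6, CDC20, BIRC5, AURKB and PLK1 lay below 0. Estimates were below 0 for 30 of 41 genes (73.2%), against 50.3% of all genes, with a median of -0.048 against -0.0011.

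**Figure D2:**
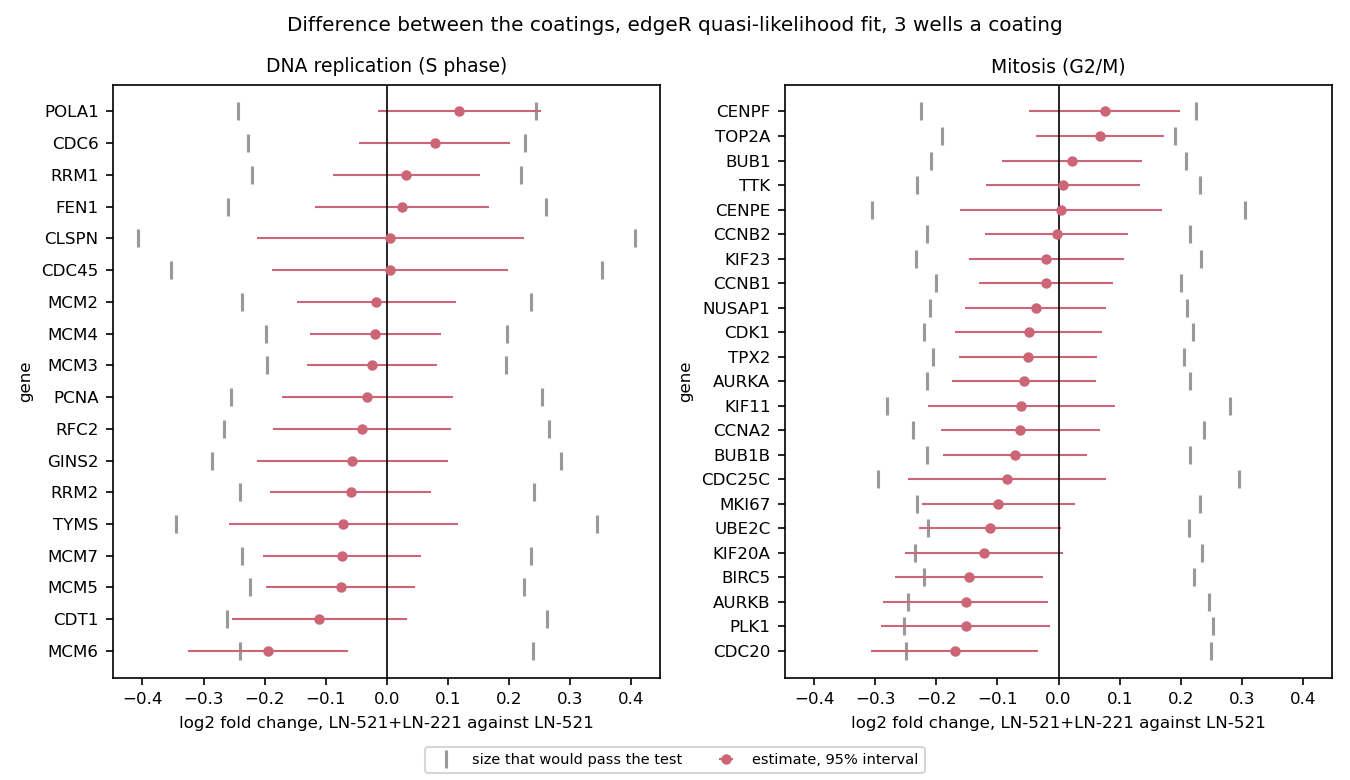
Log2 fold change of each gene on LN-521+LN-221 against LN-521 (points, with 95% intervals; x axis on the log2 scale), for the 18 replication genes (left) and 23 mitosis genes (right), with grey marks at the size that would have passed the test at that gene's precision. No point reaches its mark, and the intervals of all genes stay between -0.33 and 0.25.

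Among the replication genes the 6 helicase subunits had estimates below 0 in this fit, with a median of -0.049 (-0.025 with a correction for GC content). The sign did not hold for all 6: MCM2 was 0.027 with the GC correction, MCM2 and MCM3 were 0.048 and 0.0038 without LN-521 replicate 2, MCM2 was 0.0082 without LN-521+LN-221 replicate 1 and MCM4 0.0066 without LN-521 replicate 3. On log2(TPM + 1) MCM2 and MCM4 were 0.0077 and 0.0068. Levels are given as CPM, relative to library sizes after TMM scaling, in the order of wells 1, 2 and 3. For MCM6 (ENSG00000076003) the wells on LN-521 read 142, 140.5 and 163 CPM, and those on LN-521+LN-221 read 126, 132 and 132 CPM. All 3 wells with laminin-221 were below all 3 without it, the difference being -0.19 ± 0.062 (SE, log2; edgeR adjusted p = 0.130). The call on MCM6 depended on single libraries. It passed without LN-521 replicate 1 (-0.22, edgeR adjusted p = 0.0215) and without LN-521 replicate 2 (-0.23, edgeR adjusted p = 0.0293), and its estimate was -0.12 without LN-521 replicate 3 (edgeR adjusted p = 0.515). It also passed with a correction for GC content (-0.22, edgeR adjusted p = 0.0205). Over all alternatives its adjusted p-value ranged from 0.00103 to 0.865.

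The other subunits of the ring did not share this separation. MCM5 was 190.4, 221 and 210.3 CPM on LN-521, against 197, 197 and 197 CPM on LN-521+LN-221. The wells with laminin-221 lay within the range of the wells without it (-0.075 ± 0.058 SE, edgeR adjusted p = 0.603). MCM7 was 197, 229.9 and 203 CPM against 195, 196 and 208 CPM (-0.074 ± 0.061 SE, edgeR adjusted p = 0.637). With a library left out MCM5 ranged from -0.133 to -0.025 and MCM7 from -0.119 to -0.0012. MCM2 was 137, 152 and 131 against 134, 137 and 144 CPM, MCM3 274, 292 and 281 against 274, 284 and 275 CPM, and MCM4 229, 224 and 239 against 225, 227 and 232 CPM. For these 3 genes the estimates were -0.017, -0.024 and -0.019, with SEs of 0.061, 0.051 and 0.051 (edgeR adjusted p = 0.936, 0.879 and 0.912). As levels corrected for transcript length, in the TPM values of the authors, the ring's subunits were not equal: MCM4 stood at 125.5 ± 19.7 TPM on LN-521 (SD, n = 3) and MCM6 at 33.6 ± 3.37 TPM (SD, n = 3).

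The estimates of the licensing factors had different signs, and none passed the test. CDC6, the ATPase that recruits the ring, was 69.0, 65.1 and 68.0 CPM on LN-521, against 69.8, 71.8 and 71.7 CPM on LN-521+LN-221. Its groups did not overlap, yet the difference was 0.078 ± 0.059 (SE, edgeR adjusted p = 0.592). CDT1, its partner in loading, was 64.8, 77.1 and 71.2 CPM against 64.1, 67.0 and 66.4 CPM (-0.11 ± 0.068 SE, edgeR adjusted p = 0.50). The CDT1 estimate ranged from -0.172 to -0.045 with a library left out. It was -0.048 with the GC correction and -0.288 on log2(TPM + 1). The helicase activators CDC45 and GINS2 had estimates of 0.0052 and -0.057.

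At the fork, POLA1, the catalytic subunit of the polymerase that starts each new strand, had the highest estimate of the 41 in this fit. It was 77.7, 75.9 and 76.3 CPM on LN-521, against 90.3, 79.0 and 80.5 CPM on LN-521+LN-221. The wells with laminin-221 were all higher, with replicate 1 furthest, but the difference of 0.12 ± 0.063 did not pass (SE, edgeR adjusted p = 0.413). With a library left out the POLA1 estimate ranged from 0.059 to 0.158. Without LN-521 replicate 1 it was 0.129, below CLSPN at 0.15 and CENPF at 0.141. PCNA, the sliding clamp, was 125, 105 and 113 CPM against 107, 117 and 111 CPM. The wells of LN-521 enclosed the others (-0.032 ± 0.066 SE, edgeR adjusted p = 0.879). CLSPN, the checkpoint adaptor claspin, had the largest SE of the group, 0.102. Its 3 wells on LN-521, at 44.9, 31.8 and 36.2 CPM, spanned the 38.7, 38.8 and 35.6 CPM seen on LN-521+LN-221 (0.0054, edgeR adjusted p = 0.988). The clamp loader subunit RFC2 and the flap nuclease FEN1 had estimates of -0.040 and 0.025.

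The enzymes of deoxynucleotide supply overlapped between the coatings. RRM2, the regulated subunit of ribonucleotide reductase, was 70.2, 64.1 and 65.5 CPM on LN-521, against 62.2, 66.4 and 63.0 CPM on LN-521+LN-221 (-0.059 ± 0.062 SE, edgeR adjusted p = 0.734). RRM1, the large subunit, and thymidylate synthase TYMS had estimates of 0.032 and -0.071. Over the 18 replication genes, groups did not overlap for 3 (MCM6 lower, CDC6 and POLA1 higher), where 19.9% of all genes did not, and the median estimate was -0.028.

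**Figure D3:**
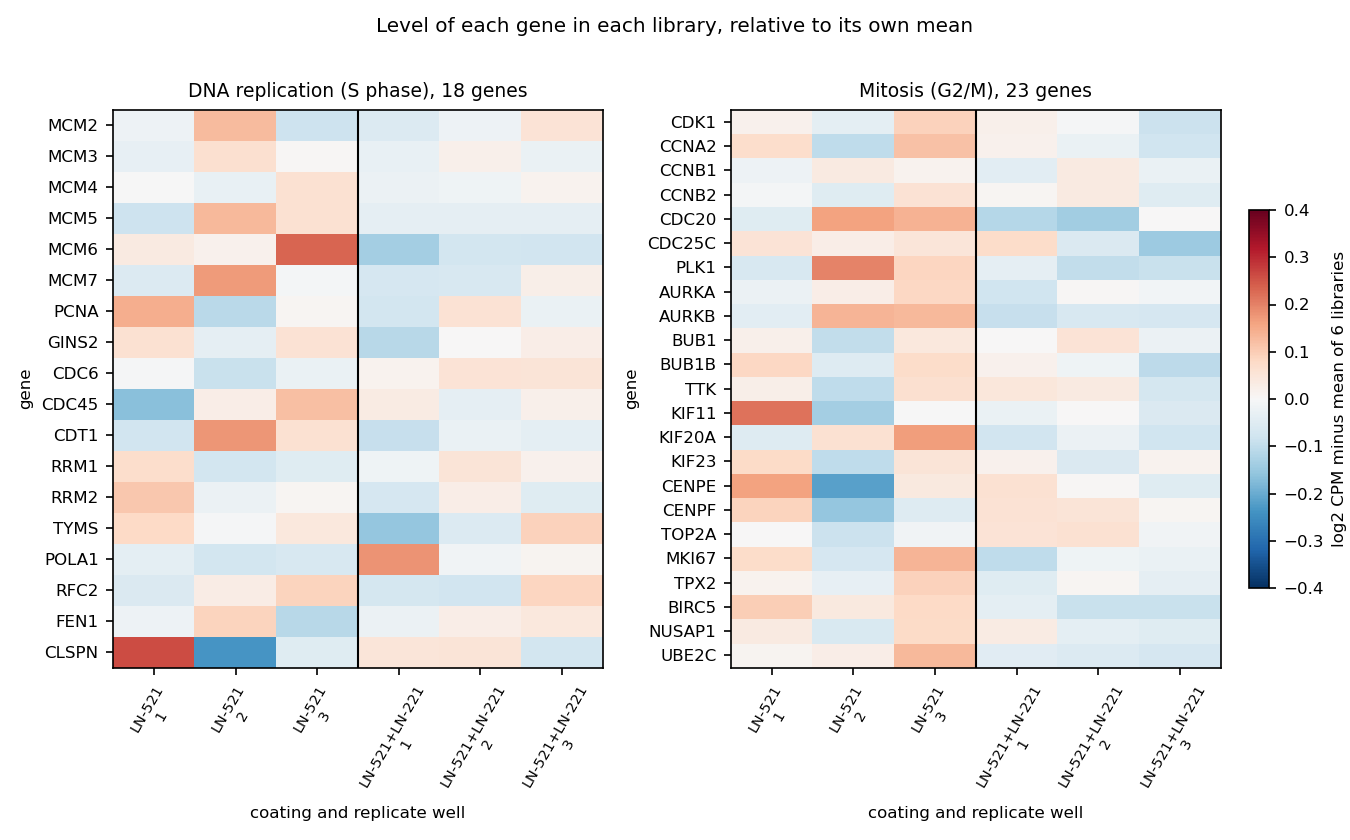
Log2 CPM of each gene in each of the 6 libraries minus the gene's mean over the libraries (colour scale on the log2 axis from -0.4 to 0.4), for replication (left) and mitosis genes (right); the black line separates the coatings. Neighbouring wells of LN-521 differ as much as the coatings do, for example in CLSPN, CENPE and PLK1.

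Among the mitosis genes, CDK1 and its 4 partners had estimates below 0 in this fit, with a median of -0.048 (-0.094 with a correction for GC content), and CCNB1 was 0.0091 on log2(TPM + 1). CDK1, the kinase that drives entry into mitosis, was 131, 126 and 138 CPM on LN-521, against 131, 129 and 122 CPM on LN-521+LN-221 (-0.049 ± 0.057 SE, edgeR adjusted p = 0.768). CCNB1, encoding cyclin B1, was 168, 174 and 172 CPM against 165, 174 and 167 CPM (-0.021 ± 0.052 SE, edgeR adjusted p = 0.902). For both genes the ranges overlapped. CCNA2 (cyclin A2), CCNB2 (cyclin B2) and CDC25C, the phosphatase that activates CDK1, had estimates of -0.062, -0.0029 and -0.084.

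Lower medians were seen for the 2 partners of the APC/C, at -0.142, and for the 7 mitotic kinases and checkpoint genes, at -0.071. With the GC correction these medians were -0.119 and -0.091, the latter close to the -0.094 of CDK1 and its partners. CDC20, the activator of the APC/C, was 116, 135 and 132 CPM on LN-521, against 111, 109 and 120.4 CPM on LN-521+LN-221. LN-521 replicate 1 lay within the range of the wells with laminin-221, and the difference was -0.17 ± 0.065 (SE, edgeR adjusted p = 0.216). UBE2C, the E2 enzyme of the APC/C and the most abundant of the 41 messages per length (150.4 ± 11.9 TPM on LN-521; SD, n = 3), was 123, 125 and 134 CPM against 119, 118 and 117 CPM. Its groups did not overlap (-0.11 ± 0.055 SE, edgeR adjusted p = 0.363).

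Survivin and Aurora B belong to the chromosomal passenger complex, which corrects faulty spindle attachments. BIRC5, encoding survivin, was 81.8, 78.5 and 80.8 CPM on LN-521, against 74.3, 71.8 and 71.9 CPM on LN-521+LN-221 (-0.15 ± 0.057 SE, edgeR adjusted p = 0.233). AURKB was 68.9, 78.0 and 77.6 CPM against 66.5, 67.9 and 67.7 CPM (-0.15 ± 0.064 SE, edgeR adjusted p = 0.269). In both genes all wells with laminin-221 were below all wells without it, and neither passed the test. PLK1, a kinase needed for spindle assembly, was 95.2, 114 and 106 CPM against 97.0, 92.9 and 93.6 CPM (-0.15 ± 0.066 SE, edgeR adjusted p = 0.286), with LN-521 replicate 1 inside the range of the other coating. AURKA, the centrosomal Aurora kinase, overlapped more widely, at 111, 115 and 119.5 CPM against 107, 113 and 112 CPM (-0.057 ± 0.056 SE, edgeR adjusted p = 0.708). The checkpoint genes BUB1, BUB1B and TTK had estimates of 0.022, -0.071 and 0.0080.

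LN-521 replicate 1 decided several of these calls. Without it 5 of 41 genes passed, all lower on LN-521+LN-221, where 6.54% of all genes passed. These were CDC20 (-0.23, edgeR adjusted p = 0.0103), PLK1 (-0.22, edgeR adjusted p = 0.0177), MCM6 (-0.22, edgeR adjusted p = 0.0215), AURKB (-0.21, edgeR adjusted p = 0.0287) and KIF20A (-0.18, edgeR adjusted p = 0.0491), the last named after its values were seen. Without LN-521 replicate 2, 1 of 41 passed (MCM6), against 3.56% of all genes. There CDC20, PLK1, AURKB and KIF20A stood at -0.129, -0.086, -0.119 and -0.12 (edgeR adjusted p = 0.337, 0.551, 0.394 and 0.376). Without any one of the other 4 libraries 0 of 41 passed.

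Motor, spindle and chromosome genes showed both signs. TOP2A, encoding the topoisomerase that untangles sister chromatids, had the smallest SE, 0.050, and was 766, 721 and 758 CPM on LN-521, against 795, 799 and 758 CPM on LN-521+LN-221 (0.067, edgeR adjusted p = 0.584). MKI67, whose product Ki-67 coats mitotic chromosomes and is the standard antigen for cycling cells, was 169, 153 and 176 CPM against 149, 158 and 157 CPM (-0.10 ± 0.060 SE, edgeR adjusted p = 0.494). Both genes overlapped between the coatings. NUSAP1, a microtubule bundling protein, was 207, 194 and 213 CPM against 206, 197 and 195 CPM (-0.037 ± 0.055 SE, edgeR adjusted p = 0.817). The mitotic kinesins KIF20A, KIF11 and KIF23 had estimates of -0.12, -0.061 and -0.020. The spindle assembly factor TPX2 stood at -0.050, and the kinetochore genes CENPE and CENPF at 0.0042 and 0.075. Over the 23 mitosis genes 3 did not overlap (AURKB, BIRC5 and UBE2C, all lower), and the median estimate was -0.057. Of all 41 genes 6 (14.6%) had groups that did not overlap, against 19.9% of all genes tested, and 4 of them were lower on LN-521+LN-221, against 9.68%.

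The replication and mitosis genes were then set against each other. The median estimate of the mitosis genes minus that of the replication genes was -0.029 on the log2 scale. With a library left out it ranged from -0.056 (without LN-521 replicate 2) to 0.013 (without LN-521 replicate 3), and was 0.003 without LN-521+LN-221 replicate 3. With a correction for GC content it was -0.071. In each library, the median over genes of log2 CPM minus the gene's own mean was taken. For the replication genes this gave -0.011, 0.007 and 0.007 with laminin-521 alone and -0.045, -0.016 and 0.015 with laminin-221 added. For the mitosis genes it was 0.021, -0.048 and 0.078 on LN-521, against 0.003, -0.017 and -0.048 on LN-521+LN-221. On this median the coatings overlapped in both groups of genes. The mitosis genes varied among the wells of LN-521 alone, where replicates 2 and 3 lay 0.126 apart, against a difference of -0.038 between the mean medians of the coatings. Of the 23 mitosis genes 10 had their highest CPM in LN-521 replicate 3 and 10 their lowest in LN-521 replicate 2. Mitosis minus replication was 0.032, -0.055 and 0.071 on LN-521, against 0.048, -0.001 and -0.064 on LN-521+LN-221, a mean of 0.016 ± 0.065 against -0.0055 ± 0.056 (SD, n = 3 each).

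**Figure D4:**
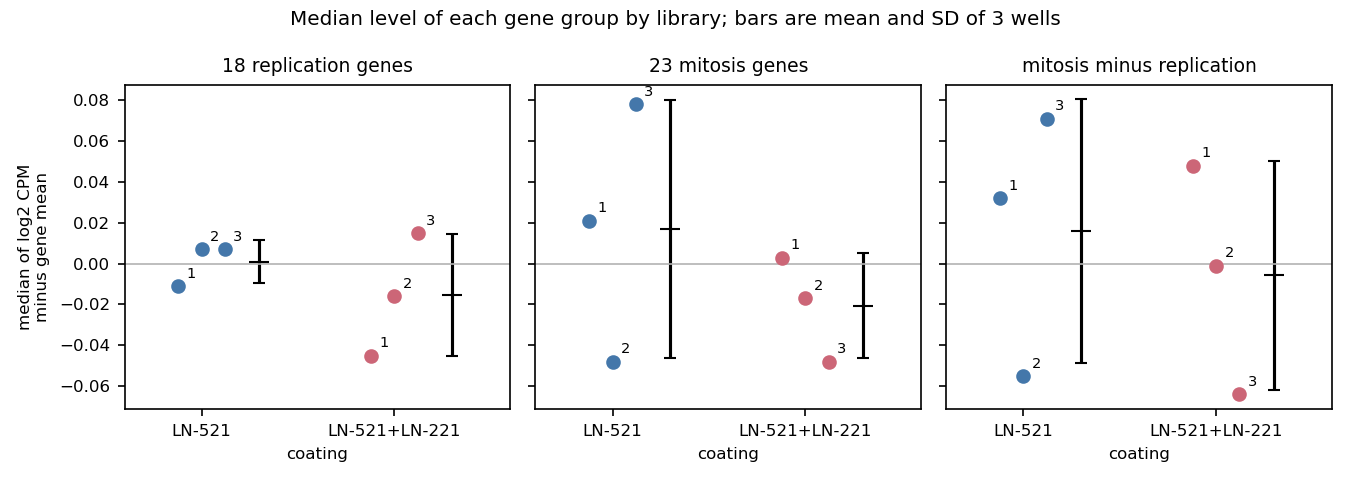
Median over genes of log2 CPM minus the gene's mean, by library (points, numbered by replicate; black bars give mean and SD of 3 wells), for 18 replication genes, 23 mitosis genes and their difference. The coatings overlap in every panel, and the mitosis genes spread over 0.126 among the LN-521 wells.

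On the authors' TPM scale the ratio of the groups differed between coatings by less than its SD. The summed TPM of the 23 mitosis genes divided by that of the 18 replication genes was 1.78, 1.74 and 1.79 on LN-521, against 1.82, 1.72 and 1.76 on LN-521+LN-221, or 1.77 ± 0.026 and 1.77 ± 0.047 (SD, n = 3 each). The sums themselves depended on the scale. Replication genes summed to 834, 694 and 759 TPM on LN-521, highest in replicate 1 and lowest in replicate 2, but to 1922, 1974 and 1954 CPM, where replicate 2 was highest. On LN-521+LN-221 they summed to 780, 776 and 717 TPM and to 1873, 1911 and 1920 CPM. The coatings overlapped in summed TPM but not in summed CPM, where all 3 wells with laminin-221 were lower. The difference between the means was -48.9 CPM, from 1950 CPM on LN-521, with a pooled SD of 25.6 CPM. Mitosis genes summed to 4566, 4256 and 4573 CPM on LN-521, against 4459, 4466 and 4325 CPM on LN-521+LN-221, and overlapped. For them the difference between the means was -48.5 CPM, from 4460 CPM on LN-521, with a pooled SD of 140 CPM. The median log2 difference of the replication genes was -0.028 in the count fit and 0.011 on log2(TPM + 1), where the median of all genes was 0.035.

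The GC content of the transcripts moved with these small differences. Across the 41 genes, which share the same 6 libraries, the log2 fold change had a Pearson correlation of -0.46 with the mean GC content of the gene's transcripts (Spearman -0.49), against -0.12 (-0.21) across 17473 genes with a GC value. Within the 23 mitosis genes Pearson's r was -0.82, and within the 18 replication genes -0.34. The 3 mitosis genes with the highest GC content, PLK1 (57.1%), CDC20 (56.6%) and AURKB (56.3%), had estimates of -0.15, -0.17 and -0.15. The 6 mitosis genes with the lowest GC content had estimates of 0.0042 (CENPE, 34.5%), -0.049 (CDK1, 37.0%), 0.0080 (TTK, 38.2%), -0.061 (KIF11, 38.3%), 0.067 (TOP2A, 38.4%) and 0.075 (CENPF, 40.9%). A gradient of the same kind separated wells of 1 coating. The deviation of LN-521 replicate 1 from the mean of its coating correlated with GC content at -0.67 over the 41 genes, that of LN-521 replicate 2 at 0.82 and that of LN-521 replicate 3 at -0.21. With laminin-221 added the values for replicates 1, 2 and 3 were -0.42, -0.26 and 0.59. With a correction for GC content in each library, the correlation over the 41 genes was -0.023, that within the mitosis genes -0.56, and the median estimates were -0.021 for replication and -0.091 for mitosis genes. In that fit 1 of 41 genes (MCM6) passed, against 5.30% of all genes, and CDC20 stood at -0.13 (edgeR adjusted p = 0.0912). With the replicate block added MCM6 alone of the 41 passed, against 6.14% of all genes. The part of GC content in what remained was not tested.

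**Figure D5:**
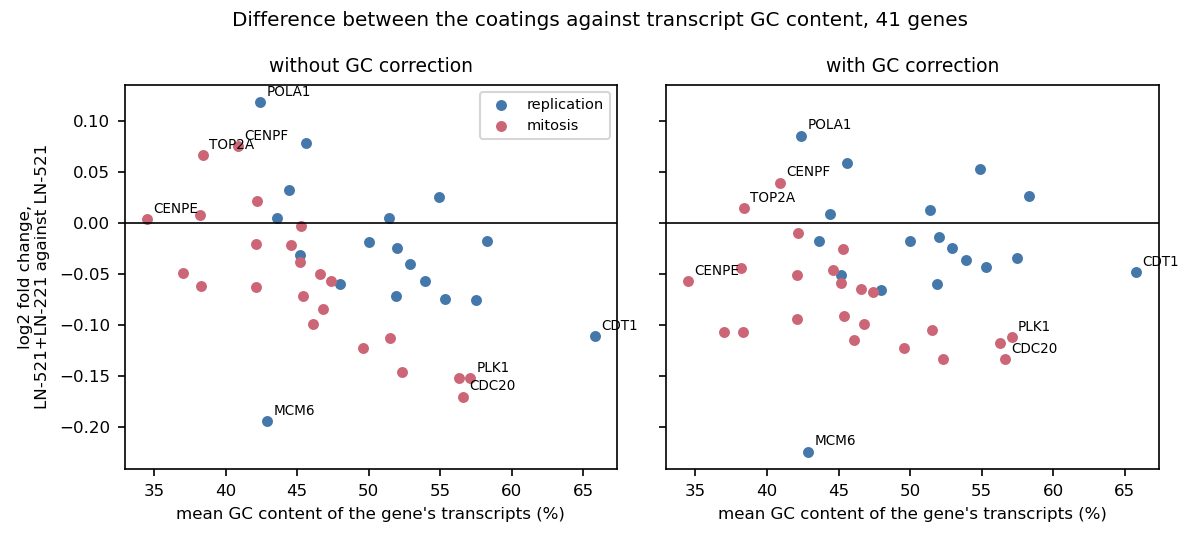
Log2 fold change on LN-521+LN-221 against LN-521 plotted against the mean GC content (%) of each gene's transcripts, without (left) and with (right) a correction for GC content per library; blue points are replication and red points mitosis genes. The downward slope over the 41 genes on the left, r = -0.46, is nearly flat on the right, r = -0.023. Within the mitosis genes alone a downward slope stays on the right, r = -0.56, against -0.82 on the left.

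Other genes of the same pathways were read in the same fit. Of 41 other replication genes, among them the ORC subunits, polymerases delta and epsilon and the RPA and RFC complexes, 0 passed with edgeR and 0 with DESeq2, against 2.53% and 3.86% of all genes. The median estimate was 0.007, and 1 unadjusted p-value was under 0.05 (TK1, lower, named after its values were seen), against 14.5% of all genes. Of 54 other mitosis genes 1 passed, lower, where 1.14% of all genes did, with a median of -0.050. This was ESPL1, encoding separase, the protease that cleaves cohesin at anaphase. It fell from 50.7, 54.8 and 52.9 CPM on LN-521 to 45.6, 42.6 and 44.7 CPM on LN-521+LN-221, with no overlap. The log2 fold change was -0.25 ± 0.065 (SE, edgeR adjusted p = 0.0462). The call on ESPL1 also held with the replicate block, DESeq2 and the GC correction (adjusted p = 0.0353, 0.0258 and 0.0155). With a library left out its log2 fold change stayed between -0.283 and -0.225, but the call did not always hold. It passed without LN-521 replicate 1 (-0.28, edgeR adjusted p = 0.0093) and missed the threshold without any one of the other 5 (edgeR adjusted p of 0.0649 without LN-521 replicate 2 to 0.302 without LN-521+LN-221 replicate 2). On log2(TPM + 1) it was -0.061 (limma adjusted p = 0.930). The number of other mitosis genes that passed depended on the setting. It was 2 of 54 with DESeq2, against 3.86% of all genes, and 2 with the replicate block, against 3.67%. INCENP joined ESPL1 in both. With the GC correction 6 passed, all lower (KIF2C, NDC80, CDCA5, INCENP, NCAPG2 and ESPL1), against 5.30% of all genes. Without LN-521 replicate 1, 6 passed, all lower (KIF2C, KIF18B, CDCA3, CDCA5, INCENP and ESPL1), against 6.54% of all genes. Apart from ESPL1 these genes were named after their values were seen. In the list of other mitosis genes 12 of 54 (22.2%) had an unadjusted p-value under 0.05, 10 of them lower, against 14.5% and 7.49% of all genes.

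Of 20 regulators of cell cycle transcription 0 passed with edgeR and 0 with DESeq2, which gave 1 of them no adjusted p-value, against 2.53% and 3.86% of all genes. The median estimate was 0.036, and 1 unadjusted p-value was under 0.05, against 14.5% of all genes. That gene was MYBL2, the B-Myb subunit that joins MuvB at mitotic promoters. It was 128, 139.8 and 132 CPM on LN-521, against 119.9, 124 and 121 CPM on LN-521+LN-221 (-0.13 ± 0.055 SE, edgeR adjusted p = 0.282). FOXM1, the forkhead factor of G2/M genes, was 55.1, 58.8 and 54.9 CPM against 55.3, 53.2 and 54.3 CPM (-0.053 ± 0.062 SE, edgeR adjusted p = 0.769). E2F1, an activator of replication genes, was 19.3, 20.8 and 21.1 CPM against 18.5, 17.8 and 19.6 CPM (-0.13 ± 0.084 SE, edgeR adjusted p = 0.522). FOXM1 and E2F1 overlapped between the coatings and MYBL2 did not.

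Some values carry a limit from the counting. Counts of 4 of the 41 genes were not whole in at least 1 library, as happens when reads that match several genes are divided among them: AURKA in 6 libraries, BUB1B in 4, RRM2 in 2 and CDC20 in 1. In GENCODE release 29 the exons of 12 of the 41 overlap a gene on the opposite strand, MCM2, MCM7, CCNA2, PLK1 and KIF20A among them, and those of RRM2, FEN1, BUB1B and NUSAP1 a gene on the same strand. Whether counting used the strand is not given in the sources used here.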

How the data were processed

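Total RNA of 6 wells was read in pairs of 150 bp from stranded total RNA libraries, per the labels' protocols. The submitters' processing notes name cutadapt, STAR 2.5.2b, RSEM 1.2.31 and hg38; the annotation is not given in the sources used here. The authors deposited estimated counts per gene (6.08% to 6.67% of values per library are not whole) and TPM values, corrected for transcript length. Gene IDs were matched to symbols, and transcript GC content and overlaps were taken from GENCODE release 29.

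Estimated counts were rounded, filtered with filterByExpr (minimum count 10), scaled by TMM (trimmed mean of M-values) and tested with edgeR 4.0.16 (R 4.3.3, quasi-likelihood, robust, no replicate block), LN-521+LN-221 against LN-521, with Benjamini-Hochberg adjustment over 17608 genes and a threshold of 0.05. The SE is the absolute log2 fold change divided by the square root of F, and 95% intervals use the fit's degrees of freedom. The common biological coefficient of variation was 7.03%. Alternatives were the replicate block, RLE, library size alone, other filters, leaving out 1551 genes of mitochondria, ribosomal RNA and the 7SK and 7SL families, DESeq2 1.42.0, limma 3.58.1 on log2(TPM + 1) and log2(TPM + 0.1), GC and length corrections (lowess, span 0.3), other thresholds, and leaving out each library. The edgeR and limma fits were tested on simulated data. The genes and lists were chosen with earlier results of these data known. Genes given with all values were those with an adjusted p-value under 0.05 (at most 6 in each list of other pathway genes), the 3 replication and 3 mitosis genes with the smallest p-value, the 3 of each with the highest TPM, those with the extreme SE, and fixed genes: MKI67, TOP2A, CDK1, CCNB1, PLK1, AURKA, MCM2, MCM5, PCNA, CDC6, CDT1, RRM2, FOXM1, MYBL2 and E2F1. The calls among the other replication genes with a library left out are not reported here.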

Additional observations from a re-analysis of the deposited data

How the results depend on the processing

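The count of 0 of 41 genes held in every setting that used all 6 libraries except the GC correction and the GC correction with the replicate block, where 1 (MCM6) passed. Leaving out each library in turn gave 0 to 5 of the 41 and 194 to 1179 of all genes, against 446. With the replicate block 646 genes and 0 of the 41 passed. Replicate numbers name wells, and the labels state no pairing between the coatings. Deviations of same-numbered wells correlated at 0.0448, -0.025 and 0.0188, and 3 of 6 libraries correlated best with their own number. With 3 wells a coating, these values cannot decide whether wells were paired. The count over all genes was 718 without a filter, 933 with the GC correction (1082 with the block), 33 with log2(TPM + 1), 44 with a trend, 1 with no filter on TPM, 16 with log2(TPM + 0.1), and 221 and 725 at thresholds of 0.01 and 0.1.

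The median of the replication genes was 0.011 in all 4 TPM settings. Estimates near 0 changed sign. CLSPN was -0.0017 with library size alone, -0.0045 without a filter, -0.0024 with the length correction, -0.017 with the GC correction and -0.011 with the block added, and MCM2 was 0.027 and 0.029 in the last 2. On log2(TPM + 1), with or without a filter or a trend, MCM4 was 0.0068, CCNB1 0.0091, MCM2 0.0077, PCNA 0.013 and FOXM1 0.069, and on log2(TPM + 0.1) they were 0.0069, 0.0092, 0.008, 0.013 and 0.073. With a library left out the ranges were -0.101 to 0.15 for CLSPN, -0.062 to 0.048 for MCM2, -0.088 to 0.035 for PCNA, -0.046 to 0.0038 for MCM3 and -0.036 to 0.0066 for MCM4. The cause was not tested. The mitosis median kept its sign in all settings run, from -0.086 to -0.02 with a library left out. It was nearest 0 in the TPM settings, at -0.015, against -0.057 in the main fit. Mitosis minus replication ranged from -0.056 to 0.013 with a library left out, and was -0.071 with the GC correction, with or without the block.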
